A study of Mus musculus with 24 samples.

Results

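The interferon-inducible GTPase genes described here are 9 genes of 2 families, the guanylate-binding proteins (GBPs) Gbp2, Gbp3, Gbp5, Gbp7 and Gbp9 and the immunity-related GTPases (IRGs) Irgm1, Irgm2, Igtp and Tgtp2. They were chosen by name, and each matched 1 Ensembl identifier among the 47643 genes of the count table. All 9 passed the filter on low counts and were among the 15000 genes tested. Expression was measured by RNA-seq in 24 libraries of cultured mouse macrophages in 8 groups of 3 independent replicates, per the series' design text. The groups are macrophages made from induced pluripotent stem cells (iPSC-derived), taken before co-culture at day 0 and after 3, 6 and 12 days of co-culture, and macrophages derived from bone marrow, taken at the same 4 points. The labels used here give no strain, age, number of cell lines or number of animals, and do not name the cells of the co-culture. Day 0 is also the only point without co-culture, so elapsed time and co-culture cannot be told apart in any change from day 0.

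GBP and IRG genes belong to the interferon response of mouse cells. Interferon-gamma acts on promoters that carry the gamma-activated site (GAS), and type I interferons act on those with the interferon-stimulated response element (ISRE), to which factors such as IRF1 also bind. The proteins gather on membranes, on the vacuoles that hold parasites and bacteria, and GBPs also on bacteria in the cytosol, where they promote inflammasome activation. Among the IRGs, effectors such as the Tgtp2 product load onto the vacuole, while the regulators encoded by Irgm1, Irgm2 and Igtp (also called Irgm3) sit on the cell's own membranes and keep the effectors inactive.

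Library totals ran from 5839316 to 11805478 counts, and correlations between libraries of the same group from 0.921 to 0.969. Levels are CPM, counts brought to a common library size with TMM scaling, given for replicates 1, 2 and 3 in that order. Changes are log2 fold changes from edgeR's quasi-likelihood test over all 24 libraries, given with a standard error (SE). The test itself reports no SE. Each SE was derived from the change and its test statistic, so it is approximate, above all for genes with few counts. Benjamini-Hochberg adjustment ran over the 15000 genes, and a gene was called when its adjusted p was below 0.05. All 10 macrophage markers had counts in every library. Their summed level was lowest in iPSC-derived day 0 libraries, at 7955 to 11096 CPM, and highest in bone marrow-derived day 0 libraries, at 42277 to 45359 CPM. The summed level of 8 fibroblast markers also moved with the days: in iPSC-derived libraries it was 4.71 to 30.3 CPM at day 0, 24.3 to 92.3 CPM at day 3, 382 to 833 CPM at day 6 and 281 to 490 CPM at day 12, and in bone marrow-derived libraries 1.56 to 15.8, 19.2 to 32.6, 33.1 to 63.4 and 112 to 204 CPM. The 10 neuron markers summed to at most 2.95 CPM at day 0 in either source and to 14.7 to 65.1 CPM in co-culture. The 10 glia markers summed in iPSC-derived libraries to 62.5 to 111 CPM at day 0, 80.9 to 129 CPM at day 3, 148 to 320 CPM at day 6 and 170 to 281 CPM at day 12, and in bone marrow-derived libraries to 74.5 to 93.6, 89.1 to 127, 92.6 to 123 and 125 to 166 CPM. Of this sum, Mbp alone held 44.6 CPM on average at day 0 in iPSC-derived and 63.1 CPM in bone marrow-derived libraries. Only 2 of the 10 glia markers had counts in every day 0 library of each source. The median log2 fold change of the 9 glia markers tested was 4.85 at day 12 in iPSC-derived cells and 4.24 in bone marrow-derived cells. At day 12 against day 0, 7 of 9 glia, 7 of 10 neuron, 6 of 8 fibroblast and 7 of 10 macrophage markers tested were called higher in iPSC-derived cells and 5, 6, 6 and 3 of them in bone marrow-derived cells, while 1 glia marker in iPSC-derived cells and 2 macrophage markers in bone marrow-derived cells were called lower. Of all genes tested, 14% were called higher and 10.7% lower in iPSC-derived cells in this comparison, and 14.7% and 9.08% in bone marrow-derived cells. The part of the marker shifts in the results was not tested. In bulk RNA, fewer cells of a type and less RNA per cell cannot be told apart. The 12 T and NK cell markers were near 0 throughout, with a summed level of at most 0.928 CPM outside bone marrow-derived day 12, where 1 library reached 4.96 CPM.

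The members lie on 3 chromosomes (GRCm38). Gbp5 (chr3:142493978-142522344), Gbp7 (chr3:142530342-142550149), Gbp3 (chr3:142560026-142573209) and Gbp2 (chr3:142620602-142638008) follow each other on the plus strand of chromosome 3, whereas Gbp9 (chr5:105077630-105139539) lies on the minus strand of chromosome 5. The 4 IRG members lie on chromosome 11, with Irgm1 (chr11:48861968-48871683) and Tgtp2 (chr11:49057194-49064206) on the minus strand and Igtp (chr11:58199556-58207591) overlapping the span of Irgm2 (chr11:58199618-58222782) on the plus strand. Igtp shares 8.01% of its exon bases with Irgm2, and Gbp7 shares 11.3% of its exon bases with the predicted gene Gm43802. Reads that match several places or several genes were not counted. Of all 51-base words in the Tgtp2 transcripts, 86.4% also occur in other genes, mostly its near-identical neighbour Tgtp1. The Tgtp2 level may therefore rest on a small share of its sequence. The share of words found in other genes was 0.293% to 12.6% in the other 8 members.

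The stretches before the transcription starts are shown because they carry the letters of the response elements. RefSeq promoter windows (GRCm38.p6) were found for 8 of the 9 members, with 2 windows for Gbp3, and the 250 bases before each start were searched on both strands. The letters TTCNNNGAA, written here for GAS, were found in 5 of the 9 windows and in 7.02% of all 32851 RefSeq windows. The letters GAAANNGAAA or TTTCNNTTTC, written here for ISRE, were found in 8 of the 9 windows and in 2.98% of all windows. The last 120 bases before a RefSeq start are printed 5′ to 3′ on the gene's strand, with every match in capitals. The gene spans given above come from the counting annotation, whose starts can differ from those of RefSeq. The printed stretches of Irgm1, Irgm2 and Gbp5 lie wholly inside those spans, and the stretches of Gbp2 and Gbp3 partly. The first 4 are those of the IRG members, and the other 4 those of the GBP members on chromosome 3, with the Gbp3 window that holds a match.
Irgm1 (chr11:48871421-48871540, minus strand): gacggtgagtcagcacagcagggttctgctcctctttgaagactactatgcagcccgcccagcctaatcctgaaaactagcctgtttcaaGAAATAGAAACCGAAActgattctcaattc
Irgm2 (chr11:58214857-58214976, plus strand): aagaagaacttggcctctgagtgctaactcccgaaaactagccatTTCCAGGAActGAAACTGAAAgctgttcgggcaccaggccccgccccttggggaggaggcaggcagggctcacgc
Igtp (chr11:58199436-58199555, plus strand): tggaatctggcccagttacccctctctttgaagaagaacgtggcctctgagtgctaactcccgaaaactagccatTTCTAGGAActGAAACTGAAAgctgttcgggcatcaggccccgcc
Tgtp2 (chr11:49064213-49064332, minus strand): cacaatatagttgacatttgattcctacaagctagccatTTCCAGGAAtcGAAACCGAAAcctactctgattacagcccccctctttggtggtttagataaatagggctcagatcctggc
Gbp2 (chr3:142620543-142620662, plus strand): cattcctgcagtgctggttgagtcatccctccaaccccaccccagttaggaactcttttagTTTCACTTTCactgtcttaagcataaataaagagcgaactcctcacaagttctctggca
Gbp3 (chr3:142559924-142560043, plus strand): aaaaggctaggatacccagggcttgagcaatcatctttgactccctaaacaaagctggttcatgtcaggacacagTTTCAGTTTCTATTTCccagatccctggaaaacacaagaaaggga
Gbp5 (chr3:142496814-142496933, plus strand): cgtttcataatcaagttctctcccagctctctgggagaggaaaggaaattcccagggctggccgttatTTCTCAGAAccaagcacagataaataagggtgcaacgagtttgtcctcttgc
Gbp7 (chr3:142530216-142530335, plus strand): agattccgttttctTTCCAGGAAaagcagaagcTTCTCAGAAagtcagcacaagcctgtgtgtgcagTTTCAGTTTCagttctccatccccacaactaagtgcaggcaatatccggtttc
In Irgm2, Igtp and Tgtp2 a GAS match is followed after 2 bases by an ISRE match, starting 75, 45 and 81 bases before the RefSeq start. Around these paired matches, 67 of 69 bases are identical between Irgm2 and Igtp, 45 of 69 between Irgm2 and Tgtp2, and 44 of 69 between Igtp and Tgtp2. Irgm1 and Gbp3 each hold 2 overlapping ISRE matches and no GAS match, and Gbp2 holds 1 ISRE match. In Gbp5 the ISRE match and the second GAS match lie further out, 165 and 245 bases before the start, and are not in the printed stretch. A match describes the letters in the window and does not show binding.

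**Figure D1:**
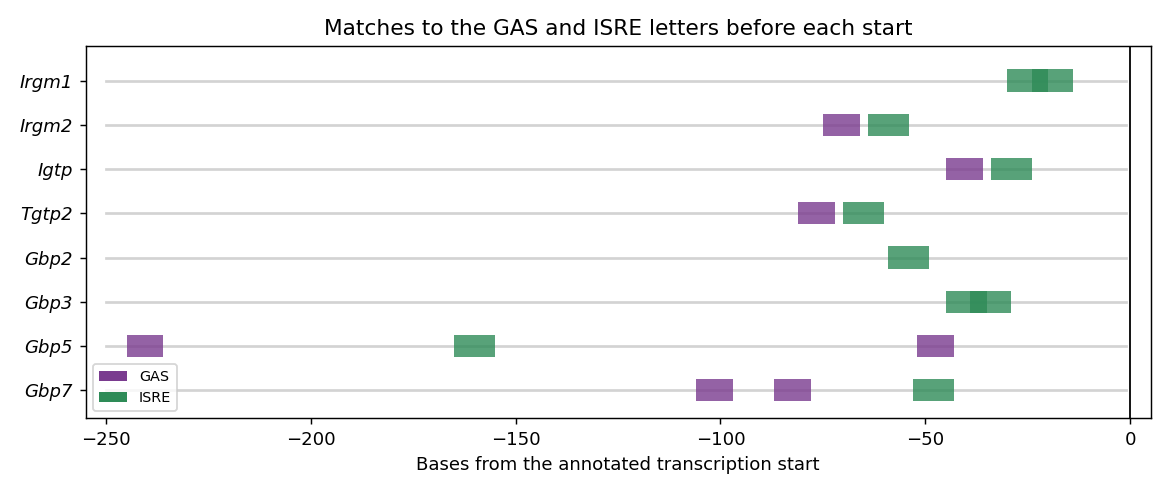
Position of each match to the GAS letters (purple) and the ISRE letters (green) in the 250 bases before the RefSeq start of 8 member genes, in bases from the start at 0. Every gene has an ISRE match, and 5 of the 8 have a GAS match; darker green marks overlapping ISRE matches in Irgm1 and Gbp3.

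None of the 4 IRG members rose in iPSC-derived macrophages, and Irgm1 fell there at day 6. In bone marrow-derived macrophages all 4 rose at day 3 and at day 6 (log2 fold changes of 1.00 to 3.78 and of 0.99 to 4.12), and 3 of the 4 rose at day 12. At day 3, 5 of the 9 GTPase genes were called higher in bone marrow-derived cells, where 11.9% of all genes tested were called higher. The number at day 6 was 5 of 9, against 12.7% of all genes, and at day 12 it was 3 of 9, against 14.7% of all genes. Without bone marrow-derived day 0 replicate 1 the numbers at days 3 and 6 were 3 of 9 each.

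Irgm1, a regulator IRG found on Golgi membranes and mitochondria that is needed for resistance to mycobacteria, was measured at 179, 179 and 290.2 CPM at day 0 in iPSC-derived libraries, at 207, 196 and 148 CPM at day 3, at 143, 182 and 109 CPM at day 6 and at 158, 164 and 132 CPM at day 12. In bone marrow-derived libraries it was measured at 78.6, 91.6 and 65.9 CPM at day 0, at 199, 187 and 193 CPM at day 3, at 189, 146 and 193 CPM at day 6 and at 184, 128 and 145 CPM at day 12. All 9 co-cultured bone marrow-derived libraries lay above all 3 day 0 libraries, whereas the iPSC-derived days 0, 3 and 6 overlapped. In iPSC-derived cells its change was -0.24 ± 0.20 at day 3 (adjusted p = 0.463), -0.58 ± 0.20 at day 6 (adjusted p = 0.0363) and -0.52 ± 0.20 at day 12 (adjusted p = 0.0622), the last being called without day 0 replicate 1 or 2 (-0.64, adjusted p of 0.043 to 0.0444). The call at day 6 was lost without iPSC-derived day 0 replicate 3, the highest library (-0.31, adjusted p = 0.281), and without day 6 replicate 1 or 3 (adjusted p of at least 0.0836). Irgm1 rose in bone marrow-derived cells by 1.29 ± 0.20 at day 3 (adjusted p = 4.5e-05), by 1.16 ± 0.20 at day 6 (adjusted p = 0.000165) and by 0.95 ± 0.20 at day 12 (adjusted p = 0.00107).

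Igtp encodes the regulator Irgm3, a protein of the endoplasmic reticulum. Its level in iPSC-derived libraries was 40.2, 42.8 and 68.2 CPM at day 0, 50.5, 62.6 and 37.1 CPM at day 3, 47.2, 62.5 and 38.3 CPM at day 6 and 52.4, 51.1 and 34.9 CPM at day 12. The bone marrow-derived libraries held 16.1, 25.8 and 18.4 CPM at day 0, 86.5, 64.5 and 68.3 CPM at day 3, 62.3, 72.1 and 65.8 CPM at day 6 and 59.8, 50.7 and 39.8 CPM at day 12. The iPSC-derived groups overlapped at all days, and every co-cultured bone marrow-derived library lay above every day 0 library of that source. In iPSC-derived cells the changes were between -0.13 and -0.01, with adjusted p-values of 0.751 to 0.994. Igtp rose in bone marrow-derived cells by 1.86 ± 0.25 at day 3 (adjusted p = 6.3e-06) and by 1.32 ± 0.25 at day 12 (adjusted p = 0.000333).

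Irgm2, the third regulator, is found on Golgi membranes. In iPSC-derived libraries it stood at 43.9, 33.3 and 74.8 CPM at day 0, at 75.9, 56.8 and 54.9 CPM at day 3, at 66.4, 77.8 and 43.2 CPM at day 6 and at 39.9, 41.2 and 39.9 CPM at day 12. It stood in bone marrow-derived libraries at 22.2, 47.6 and 47.3 CPM at day 0, at 77.9, 74.0 and 82.4 CPM at day 3, at 78.6, 83.8 and 70.3 CPM at day 6 and at 66.4, 54.6 and 59.8 CPM at day 12. Replicate 1 was the low library of bone marrow-derived day 0, and the co-cultured libraries of that source still lay above all 3. No change of Irgm2 was called in iPSC-derived cells, where the adjusted p-values ran from 0.397 to 0.47. Irgm2 rose in bone marrow-derived cells by 1.00 ± 0.26 at day 3 (adjusted p = 0.00857) and by 0.99 ± 0.26 at day 6 (adjusted p = 0.00921), and its change at day 12 was 0.63 ± 0.26 (adjusted p = 0.0886), called without scaling factors (0.80, adjusted p = 0.0288) or without the filter (0.63, adjusted p = 0.0377). Without that low day 0 library the day 3 change was 0.75 (adjusted p = 0.0526) and the day 6 change 0.72 (adjusted p = 0.0608), so both calls rest on it.

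Tgtp2, which encodes an effector that coats parasite vacuoles, had the largest fold change of the 9 in bone marrow-derived cells. It was barely detected in iPSC-derived libraries, at 0.438, 0 and 2.04 CPM at day 0, 0.616, 0.843 and 0.344 CPM at day 3, 0.250, 0.248 and 0.586 CPM at day 6 and 0, 0.569 and 0.101 CPM at day 12. The 3 libraries of each iPSC-derived group held 23, 16, 10 and 7 counts together at days 0, 3, 6 and 12. Its level in bone marrow-derived libraries was 1.03, 3.48 and 1.95 CPM at day 0, 35.7, 23.8 and 30.3 CPM at day 3, 40.2, 33.6 and 40.0 CPM at day 6 and 30.4, 19 and 18.6 CPM at day 12. The lowest co-cultured library of that source was above the highest day 0 library. The iPSC-derived changes of -0.46 to -1.74 were not called (adjusted p of 0.159 to 0.747). That of day 12 was called without day 0 replicate 2 (-2.31, adjusted p = 0.0357), the library with no count, or without day 12 replicate 2 (-3.61, adjusted p = 0.0482). Tgtp2 rose in bone marrow-derived cells by 3.78 ± 0.60 at day 3 (adjusted p = 4.77e-05), 4.12 ± 0.60 at day 6 (adjusted p = 1.86e-05) and 3.38 ± 0.59 at day 12 (adjusted p = 0.000131).

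Of the 4 GBP members on chromosome 3, 3 were called lower at day 12 in both sources. In iPSC-derived macrophages Gbp2 and Gbp3 fell at days 6 and 12 (log2 fold changes of -2.29 to -1.95), and Gbp7 also fell at both days. In bone marrow-derived macrophages the same 3 genes fell at day 12. In iPSC-derived cells, 1 of the 9 GTPase genes was called lower at day 3, where 8.14% of all genes tested were, 4 of 9 at day 6, against 11% of all genes, and 3 of 9 at day 12, against 10.7% of all genes. Without iPSC-derived day 0 replicate 3 it was 2 of 9 at day 6 and at day 12, and without day 0 replicate 2 it was 5 of 9 at day 12. The summed level of fibroblast markers was also highest at days 6 and 12 in this source, and its part in these falls was not tested. The number called lower in bone marrow-derived cells was 0 of 9 at day 3, against 6.61% of all genes, 1 of 9 at day 6, against 6.89%, and 3 of 9 at day 12, against 9.08%.

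Gbp2, which carries a lipid anchor and takes part in control of Toxoplasma gondii in mice, was at 30.1, 34.9 and 56.9 CPM at day 0 in iPSC-derived libraries, 32.8, 34.5 and 30.7 CPM at day 3, 8.76, 16.2 and 6.64 CPM at day 6 and 10.9, 9.95 and 7.99 CPM at day 12. In bone marrow-derived libraries it was at 55.2, 35.8 and 51.5 CPM at day 0, 71.9, 61.5 and 64.7 CPM at day 3, 54.6, 43.8 and 37.4 CPM at day 6 and 33.4, 17.6 and 14.2 CPM at day 12. The iPSC-derived libraries of days 6 and 12 all lay below those of days 0 and 3, and the bone marrow-derived libraries of day 12 all lay below those of day 0. In iPSC-derived cells Gbp2 changed by -0.31 ± 0.30 at day 3 (adjusted p = 0.525), by -1.95 ± 0.32 at day 6 (adjusted p = 6.25e-05) and by -2.08 ± 0.32 at day 12 (adjusted p = 2.78e-05). Its change in bone marrow-derived cells was 0.48 ± 0.30 at day 3 (adjusted p = 0.301), -0.07 ± 0.30 at day 6 (adjusted p = 0.917) and -1.13 ± 0.31 at day 12 (adjusted p = 0.00829). The last call was lost without bone marrow-derived day 12 replicate 3, the lowest library (-0.89, adjusted p = 0.0615).

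Gbp3 held 26.9, 37.4 and 43.8 CPM at day 0 in iPSC-derived libraries, 25.4, 20.3 and 16.9 CPM at day 3, 9.01, 12.4 and 5.76 CPM at day 6 and 6.35, 10.5 and 5.16 CPM at day 12. It held in bone marrow-derived libraries 44.9, 50.9 and 33.2 CPM at day 0, 34.7, 38.6 and 41.2 CPM at day 3, 29.3, 31.7 and 31.2 CPM at day 6 and 22.2, 16.2 and 24.2 CPM at day 12. Day 0 and day 3 did not overlap in iPSC-derived cells and overlapped in bone marrow-derived cells. In iPSC-derived cells Gbp3 changed by -0.79 ± 0.28 at day 3 (adjusted p = 0.0468), -2.0 ± 0.29 at day 6 (adjusted p = 1.41e-05) and -2.29 ± 0.29 at day 12 (adjusted p = 2.49e-06). The day 3 call was lost without any 1 of day 0 replicates 2 and 3 and day 3 replicates 2 and 3 (-0.76 to -0.62, adjusted p of 0.11 to 0.174), and under 3 other settings (adjusted p of 0.0538 to 0.0948). Gbp3 fell in bone marrow-derived cells by 1.04 ± 0.28 at day 12 (adjusted p = 0.0068).

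Gbp7, which also takes part in control of Toxoplasma gondii in mice, was measured in iPSC-derived libraries at 42.7, 41.0 and 70.2 CPM at day 0, 49.2, 30.1 and 26.6 CPM at day 3, 26.9, 33.6 and 20.4 CPM at day 6 and 24.4, 20.8 and 35.8 CPM at day 12. Its level in bone marrow-derived libraries was 131, 117 and 109 CPM at day 0, 77.7, 86.2 and 87.9 CPM at day 3, 66.2, 64.3 and 59.0 CPM at day 6 and 57.7, 29.9 and 43.5 CPM at day 12. The iPSC-derived libraries of days 6 and 12 all lay below those of day 0, and every bone marrow-derived day lay wholly below the sampled day before it. In iPSC-derived cells Gbp7 fell by 0.93 ± 0.26 both at day 6 (adjusted p = 0.0104) and at day 12 (adjusted p = 0.0109). Without iPSC-derived day 0 replicate 3, the highest library, those values were -0.64 (adjusted p = 0.0942) and -0.63 (adjusted p = 0.0956), and the calls were also lost without day 6 replicate 3 (adjusted p = 0.0511) or day 12 replicate 2 (adjusted p = 0.0656). Fits of the compared groups alone lost both calls too (-0.91, adjusted p = 0.0595 at day 6, and -0.89, adjusted p = 0.0686 at day 12). Its iPSC-derived day 3 change of -0.54 ± 0.26 (adjusted p = 0.156) was called without day 3 replicate 1 (-0.85, adjusted p = 0.0363). Gbp7 fell in bone marrow-derived cells by 0.91 ± 0.26 at day 6 (adjusted p = 0.0132) and by 1.45 ± 0.26 at day 12 (adjusted p = 0.000174), the day 6 call being lost without day 0 replicate 1 or day 6 replicate 3 (-0.87 to -0.83, adjusted p of 0.0539 to 0.0577).

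Gbp5, a lipid-anchored GBP that promotes inflammasome assembly, was near the limit of detection in iPSC-derived cells. Its libraries there held 0.766, 0 and 0.751 CPM at day 0, 0.103, 0.722 and 0.804 CPM at day 3, 0.125, 0 and 0 CPM at day 6 and 0.240, 0 and 0 CPM at day 12. These are 14, 14, 1 and 2 counts per group of 3 libraries. In bone marrow-derived libraries it was present throughout, at 2.45, 2.09 and 9.77 CPM at day 0, 4.15, 4.55 and 4.24 CPM at day 3, 2.98, 3.52 and 3.27 CPM at day 6 and 1.90, 4.16 and 0.720 CPM at day 12. As a ratio of library-scaled counts, iPSC-derived day 12 was 0.137 of day 0, with a 95% interval for counting error of 0.0151 to 0.596, and day 6 was 0.0750 of day 0 (0.00177 to 0.493). No change of Gbp5 from day 0 was called in either source (adjusted p of 0.0826 to 0.98). The iPSC-derived change was called at day 6 without day 0 replicate 2 (adjusted p = 0.0389) and at day 12 without day 12 replicate 1 (adjusted p = 0.0496).

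Gbp9, the GBP member on chromosome 5, rose at days 3 and 6 in both sources. Its iPSC-derived libraries held 35.1, 27.7 and 41.3 CPM at day 0, 97.6, 101 and 49.5 CPM at day 3, 58.0, 95.9 and 52.0 CPM at day 6 and 58.4, 54.5 and 55.5 CPM at day 12. Its bone marrow-derived libraries held 39.2, 38.5 and 42.1 CPM at day 0, 83.3, 64.1 and 63.6 CPM at day 3, 68.3, 82.0 and 71.2 CPM at day 6 and 80.8, 44.8 and 38.9 CPM at day 12. In both sources every library of days 3 and 6 lay above every day 0 library, and at day 12 this held in iPSC-derived cells. Gbp9 was the 1 of 9 members called higher in iPSC-derived cells, at day 3 by 1.25 ± 0.27 (adjusted p = 0.00139) and at day 6 by 0.98 ± 0.27 (adjusted p = 0.00808), days at which 11.2% and 14.3% of all genes tested were called higher. The day 6 call was lost without day 0 replicate 2 or day 6 replicate 2 (0.66 to 0.84, adjusted p of 0.0516 to 0.0854). At day 12, where 14% of all genes were called higher, its change of 0.69 ± 0.27 was not called (adjusted p = 0.0594), though it was under 4 other settings (0.72 to 0.73, adjusted p of 0.0117 to 0.0464). Gbp9 rose in bone marrow-derived cells by 0.82 ± 0.27 at day 3 (adjusted p = 0.0325) and by 0.89 ± 0.27 at day 6 (adjusted p = 0.0201). The day 3 call was lost without any 1 of day 0 replicates 1, 2 and 3 and day 3 replicates 1 and 2 (0.68 to 0.89, adjusted p of 0.0504 to 0.14), and the day 6 call without day 0 replicate 1 or 2 or day 6 replicate 2 (0.81 to 0.89, adjusted p of 0.0505 to 0.0743).

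**Figure D2:**
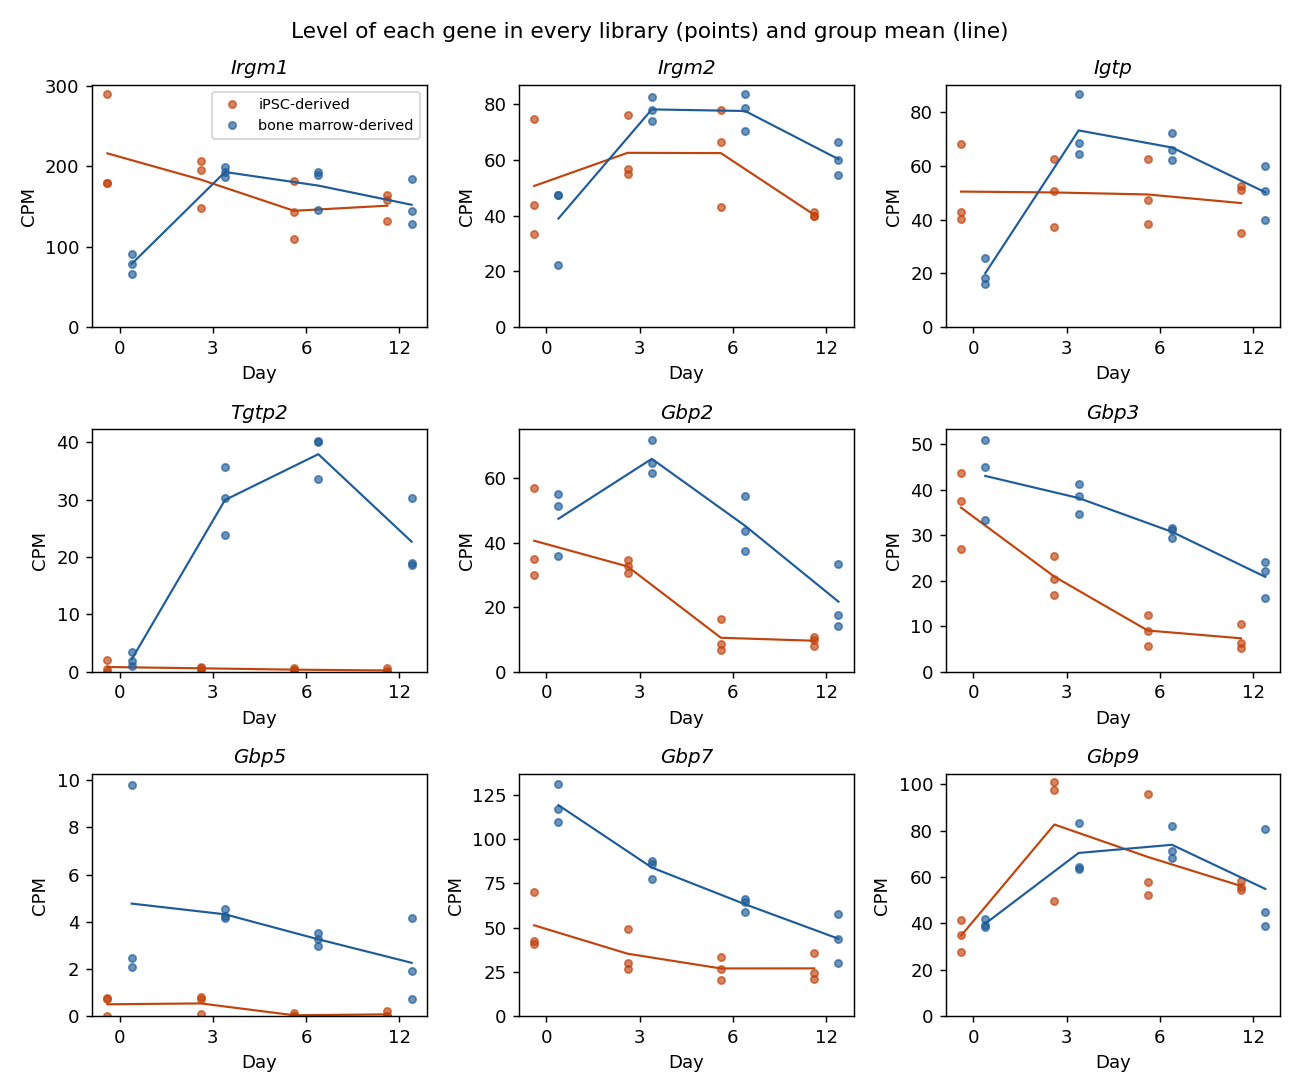
Level of each of the 9 genes in CPM (linear axes from 0, a different range in each panel) in every library by day, with iPSC-derived libraries in orange to the left and bone marrow-derived libraries in blue to the right; points are libraries and lines join group means of 3. Tgtp2 is at 0 to 2.04 CPM in all iPSC-derived libraries and at 18.6 to 40.2 CPM in co-cultured bone marrow-derived libraries, and the means of Gbp2 and Gbp3 are lowest at days 6 and 12 in iPSC-derived cells.

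**Figure D3:**
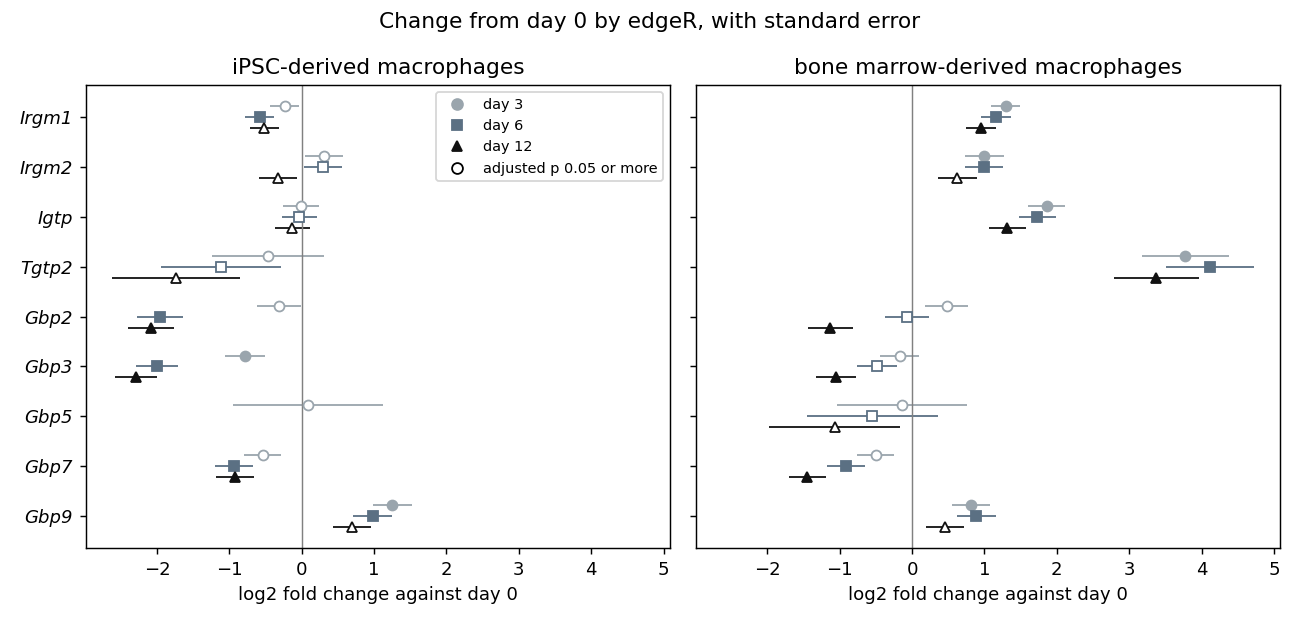
Log2 fold change from day 0 of each gene with its SE (bars) at days 3, 6 and 12, iPSC-derived macrophages on the left and bone marrow-derived macrophages on the right; filled symbols have an adjusted p below 0.05. All 4 IRG genes lie right of 0 at each day in bone marrow-derived cells, while Gbp2, Gbp3 and Gbp7 lie left of 0 at day 12 in both. Gbp5 in iPSC-derived cells is drawn at day 3 only, since days 6 and 12 hold 1 and 2 counts.

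Between day 3 and day 12 of co-culture Gbp2 and Gbp3 fell in both sources, and Gbp7 fell in bone marrow-derived cells. In iPSC-derived cells 2 of the 9 members were called lower at day 12 against day 3, where 4.82% of all genes were called lower: Gbp2 by 1.77 ± 0.32 (adjusted p = 0.000735) and Gbp3 by 1.5 ± 0.29 (adjusted p = 0.00139) on the log2 scale. In bone marrow-derived cells 3 of 9 were called lower, against 4.25% of all genes: Gbp2 (-1.60 ± 0.31, adjusted p = 0.00101), Gbp3 (-0.87 ± 0.28, adjusted p = 0.0492) and Gbp7 (-0.94 ± 0.26, adjusted p = 0.0213). The bone marrow-derived call of Gbp3 was lost on leaving out any 1 of the 6 libraries (adjusted p of 0.0729 to 0.21). That of Gbp7 was lost without day 3 replicate 2 or 3 or day 12 replicate 2 or 3 (adjusted p of 0.0669 to 0.144). None of the 9 was called higher, against 4.07% of all genes in iPSC-derived and 4.2% in bone marrow-derived cells. Gbp9 in iPSC-derived cells was called lower without day 3 replicate 3 (-0.80, adjusted p = 0.0487). Among bone marrow-derived day 12 libraries, replicate 1 was the highest library for 7 of the 9 members, and in iPSC-derived day 0 replicate 3 was the highest for 8 of the 9.

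Set against bone marrow-derived cells of the same day, iPSC-derived cells began with more Irgm1 and Igtp and ended with less Gbp2, Gbp3, Gbp5 and Tgtp2. At day 0 Irgm1 averaged 216 ± 64.0 CPM in iPSC-derived and 78.7 ± 12.9 CPM in bone marrow-derived libraries (SD, n = 3 each), a difference of 1.46 ± 0.21 on the log2 scale (adjusted p = 4.1e-06). Igtp averaged 50.4 ± 15.5 CPM in iPSC-derived and 20.1 ± 5.04 CPM in bone marrow-derived libraries at day 0, a difference of 1.33 ± 0.25 (adjusted p = 0.000175). These were the 2 of 9 members called higher at day 0, where 18.9% of all genes were. The 2 of 9 called lower, against 17.1% of all genes, were Gbp7 (-1.21 ± 0.26, adjusted p = 0.00061) and Gbp5 (-3.20 ± 1.01, adjusted p = 0.0155). The Gbp5 call was lost without iPSC-derived day 0 replicate 2 or bone marrow-derived day 0 replicate 3 (-2.63 to -2.11, adjusted p of 0.0583 to 0.146). Tgtp2 was not called at day 0 (-1.37 ± 0.67, adjusted p = 0.117), and without iPSC-derived day 0 replicate 3 it was (-3.23, adjusted p = 0.00299).

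In co-culture no member was called higher in iPSC-derived cells, against 8.94%, 6.99% and 5.03% of all genes at days 3, 6 and 12. The number called lower was 5 of 9 at day 3, against 8.92% of all genes, 5 of 9 at day 6, against 6.23%, and 4 of 9 at day 12, against 4.74%. Tgtp2 differed by -5.61 ± 0.68 at day 3 (adjusted p = 1.23e-06), -6.61 ± 0.73 at day 6 (adjusted p = 4.46e-07) and -6.49 ± 0.75 at day 12 (adjusted p = 1.59e-06). Gbp5 differed by -2.97 ± 1.01 at day 3 (adjusted p = 0.0409). At day 6 it was 0.0118 of the bone marrow-derived level (95% counting interval 0.000295 to 0.0677), and at day 12 it was 0.0314 (0.00373 to 0.118). Gbp3 was lower at all 3 days, by 0.87 ± 0.28 at day 3 (adjusted p = 0.0288), 1.77 ± 0.29 at day 6 (adjusted p = 9.82e-05) and 1.5 ± 0.29 at day 12 (adjusted p = 0.00093). Gbp2 was lower by 1.02 ± 0.30 at day 3 (adjusted p = 0.0192), 2.11 ± 0.32 at day 6 (adjusted p = 3.81e-05) and 1.18 ± 0.32 at day 12 (adjusted p = 0.0163). Gbp7 was called lower at days 3 and 6 (-1.25 ± 0.26, adjusted p = 0.00102, and -1.23 ± 0.26, adjusted p = 0.00194) and not at day 12 (-0.70 ± 0.26, adjusted p = 0.0985), where it was called without iPSC-derived replicate 3 or bone marrow-derived replicate 2 (-0.92 to -0.91, adjusted p of 0.034 to 0.042). For Irgm1, Irgm2, Igtp and Gbp9 no difference was called in co-culture (log2 differences of -0.58 to 0.23), except that without scaling factors Igtp was called lower at day 3 (-0.75, adjusted p = 0.0287). For Irgm1 at day 12 the difference was -0.01 ± 0.20 (adjusted p = 0.988).

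Several of these source calls were lost when 1 library was left out. At day 3, the Gbp5 call was lost without any 1 of the 6 libraries (-3.40 to -2.47, adjusted p of 0.0612 to 0.158). The Gbp2 call was lost without iPSC-derived or bone marrow-derived replicate 1 (-1.01 to -0.95, adjusted p of 0.0523 to 0.0669). The Gbp3 call was lost without replicate 2 or 3 of either source (-0.86 to -0.75, adjusted p of 0.0756 to 0.103). At day 12, Gbp2 was lost without iPSC-derived replicate 3 or bone marrow-derived replicate 1 (-1.02 to -0.73, adjusted p of 0.066 to 0.191), and Gbp5 without iPSC-derived replicate 2 or 3 or bone marrow-derived replicate 2 (adjusted p of 0.0508 to 0.064). The day 6 calls and the Tgtp2 calls in co-culture held on leaving out each library in turn. The change from day 0 also differed between the sources, in a test of that difference itself. It was lower in iPSC-derived cells for 3 of 9 members at day 3, against 11.5% of all genes, for 5 of 9 at day 6, against 11.1%, and for 4 of 9 at day 12, against 11%. The day 12 number was 2 of 9 without iPSC-derived day 0 replicate 3. None of the 9 was called in the other direction, against 9.03%, 8.62% and 9.07% of all genes. Irgm1, Igtp and Tgtp2 were called at all 3 days, Gbp3 at days 6 and 12 and Gbp2 at day 6.

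**Figure D4:**
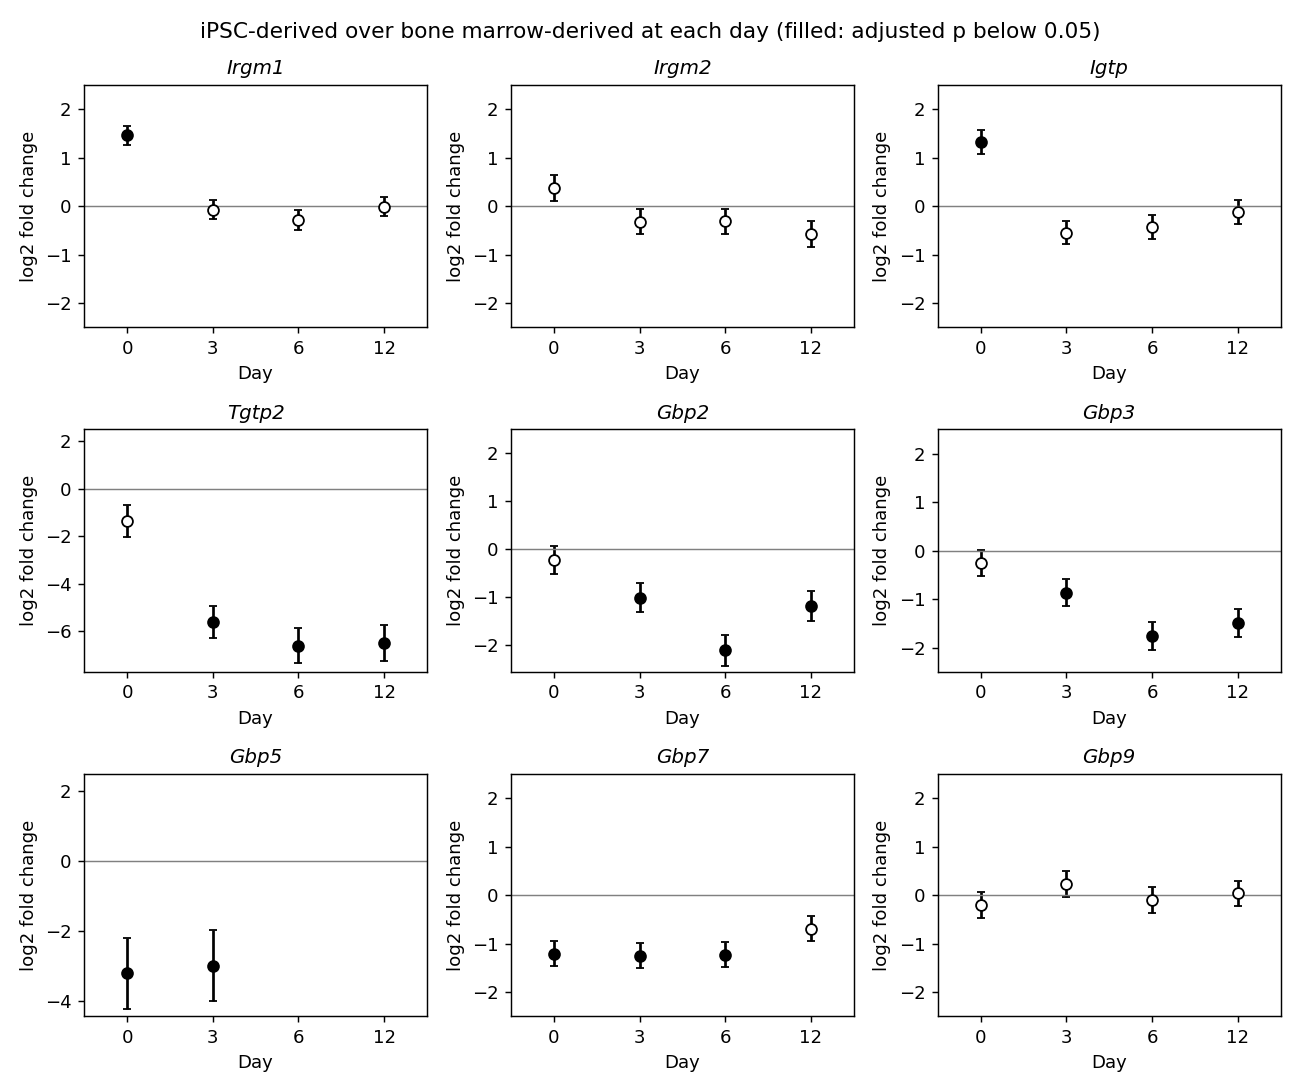
Log2 fold change of iPSC-derived over bone marrow-derived cells at each day for the 9 genes, with SE (bars) and axes that differ between panels; filled points have an adjusted p below 0.05. Irgm1 and Igtp lie above 0 at day 0 and near or below 0 in co-culture, while Tgtp2 drops to -5.61 and below. Gbp5 at days 6 and 12 is not drawn, since the iPSC-derived groups hold 1 and 2 counts.

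Levels of different genes were compared per length, as RPKM (reads scaled to exon length and library size). Tgtp2 cannot be placed in this order, since reads from the 86.4% of its sequence shared with other genes were left out while its full exon length was used, so its RPKM and the IRG sums understate it by an unknown amount. Of the other 8 members Irgm1 was the highest in all 4 iPSC-derived groups, at 37.2 ± 11, 31.6 ± 5.33, 24.9 ± 6.27 and 26 ± 2.95 RPKM at days 0, 3, 6 and 12 (SD, n = 3 each). Igtp was next, at 24.9 ± 7.66, 24.8 ± 6.31, 24.4 ± 6.06 and 22.8 ± 4.81 RPKM, and the gap between them was smaller than the larger of their SDs at days 6 and 12 and not at days 0 and 3. In bone marrow-derived cells the leading gene changed with the days. Gbp7 was highest at day 0 (21.2 ± 1.98 RPKM), with Gbp2 next at 18.9 ± 4.08 RPKM and within its spread. Igtp was highest at day 3 (36.2 ± 5.80 RPKM) and at day 6 (33.0 ± 2.47 RPKM), and Irgm1 at day 12 (26.2 ± 4.90 RPKM). On these 3 days the gap between both genes was smaller than the larger of their SDs. Gbp5 had the lowest mean of the members in all 8 groups, from 0.00628 RPKM in iPSC-derived day 6 to 0.719 RPKM in bone marrow-derived day 0. In iPSC-derived days 0 and 12 and bone marrow-derived day 0 its gap to Tgtp2 was smaller than the larger of their SDs. At day 12 in iPSC-derived cells Irgm2 (10.9 ± 0.209 RPKM) and Gbp9 (10.9 ± 0.388 RPKM) could not be ordered beyond their spread, nor could Gbp7 (4.81 ± 1.40 RPKM) and Gbp2 (3.82 ± 0.590 RPKM), with Gbp3 below them at 2.25 ± 0.862 RPKM. 

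Summed over the family, the 4 IRG members averaged 76.2 ± 24.7, 73.5 ± 12.7, 66.4 ± 16.9 and 59.8 ± 7.87 RPKM at days 0, 3, 6 and 12 in iPSC-derived libraries. In bone marrow-derived libraries the same sum averaged 34.8 ± 7.40, 101 ± 9.06, 97.3 ± 2.00 and 75.1 ± 12.6 RPKM. The 5 GBP members summed to 43.1 ± 11.8, 41.7 ± 8.79, 25 ± 8.68 and 21.7 ± 0.296 RPKM in iPSC-derived libraries and to 61.7 ± 4.62, 67.1 ± 2.54, 53.4 ± 3.71 and 33.8 ± 10.8 RPKM in bone marrow-derived libraries (SD, n = 3 each). IRG members made up more of the summed level than GBP members in every group but bone marrow-derived day 0.

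**Figure D5:**
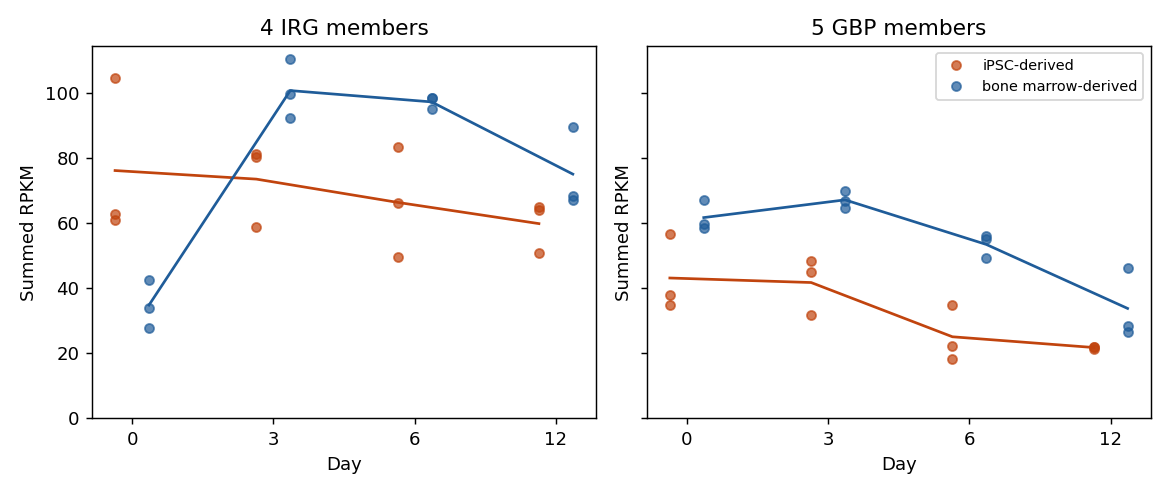
Summed level of the 4 IRG members (left) and the 5 GBP members (right) in RPKM in every library by day, iPSC-derived in orange and bone marrow-derived in blue; points are libraries and lines join group means. The IRG sum in bone marrow-derived libraries is 27.9 to 42.6 RPKM at day 0 and 67.2 to 110.3 RPKM in co-culture, and the mean GBP sum is lowest at day 12 in both sources.

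Across the 24 libraries, levels were compared within and between sets that differ in family and position. Pearson correlations of log2 CPM among the 4 GBP members on chromosome 3 ran from 0.66 to 0.91 over 6 pairs, the highest being Gbp2 with Gbp3. Among Irgm1, Irgm2 and Igtp they ran from 0.59 to 0.86 over 3 pairs. Between these sets they ran from -0.22 to 0.30 over 12 pairs. Tgtp2, the other IRG member, correlated with the chromosome 3 GBPs at 0.51 to 0.78 and with the 3 regulator IRGs at 0.16 to 0.58, so the members do not divide cleanly by family. Gbp9 correlated with the 4 chromosome 3 GBPs at -0.16 to 0.07 and with the 3 regulator IRGs at 0.40 to 0.63. The libraries share source, day and depth, so these values are descriptions. The 6 genes outside both families most like the mean pattern of the 9 members, among 9927 genes, were Slfn5 (Pearson r of 0.92), Ifi209 (0.88), Epsti1 (0.87), Sp100 (0.87), Ddx58 (0.87) and H2-T22 (0.86).

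The rest of the interferon pathway was read from gene lists. Transcripts of the ligands were almost absent: Ifng, the interferon-gamma gene, had 1 count in 1 of 24 libraries, Ifnb1 had 6 counts in 2 libraries, and none of 9 ligand genes passed the filter. Of the 12 receptor and JAK-STAT genes, 4, 3 and 3 were called higher and 0, 1 and 1 lower in iPSC-derived cells at days 3, 6 and 12, with median log2 fold changes of -0.11, -0.18 and -0.32. In bone marrow-derived cells 7, 5 and 2 were called higher and 1, 0 and 1 lower, with medians of 0.68, 0.51 and 0.12. Beside these and the list counts that follow stand 11.2%, 14.3% and 14% of all genes called higher and 8.14%, 11% and 10.7% lower at days 3, 6 and 12 in iPSC-derived cells, and 11.9%, 12.7% and 14.7% higher and 6.61%, 6.89% and 9.08% lower in bone marrow-derived cells. Ifngr1, a chain of the interferon-gamma receptor, rose in iPSC-derived cells by 1.56 ± 0.14 at day 3 (adjusted p = 1.41e-08) and by 1.32 ± 0.14 at day 12 (adjusted p = 1.65e-07). It averaged 204 ± 20.2, 601 ± 59.5, 512 ± 115 and 508 ± 64.1 CPM there at days 0, 3, 6 and 12. The bone marrow-derived libraries averaged 628 ± 33.8, 884 ± 97.1, 731 ± 31.4 and 503 ± 14.7 CPM (SD, n = 3 each).

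A list of 8 genes held interferon regulatory factor (IRF) genes and also Batf2, which is not an IRF gene. Of the 8, 2, 2 and 1 were called higher and 0, 1 and 3 lower in iPSC-derived cells at days 3, 6 and 12, and 3, 2 and 2 higher and none lower in bone marrow-derived cells. Irf1, which activates GBP genes in mice, averaged 55.6 ± 4.35, 69.1 ± 11.6, 52.8 ± 12.6 and 39.6 ± 3.25 CPM in iPSC-derived libraries and 125 ± 11.5, 137 ± 27.3, 144 ± 15.6 and 91.7 ± 7.51 CPM in bone marrow-derived libraries at days 0, 3, 6 and 12. It was lower in iPSC-derived cells at every day, by 1.17 ± 0.17 at day 0 (adjusted p = 7.95e-06) and by 1.21 ± 0.17 at day 12 (adjusted p = 2.75e-05). Irf7, which amplifies type I interferon production, fell by 2.56 ± 0.38 at day 12 in iPSC-derived cells (adjusted p = 4.77e-05) and rose by 4.74 ± 0.42 at day 3 in bone marrow-derived cells (adjusted p = 7.23e-08). These changes are of different days and began at different levels. Irf7 averaged 293 ± 14.7, 156 ± 39.1, 72.1 ± 33.1 and 49.8 ± 16.5 CPM in iPSC-derived libraries at days 0, 3, 6 and 12. In bone marrow-derived libraries it averaged 33.4 ± 16.8, 894 ± 96.2, 375 ± 50.9 and 142 ± 60.8 CPM. Irf8, a factor of the macrophage lineage, rose by 1.25 ± 0.17 at day 12 in iPSC-derived cells (adjusted p = 8.18e-06) and was not called in bone marrow-derived cells (-0.23 ± 0.17, adjusted p = 0.36).

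Of 20 type I interferon target genes none was called higher in iPSC-derived cells, and 7, 16 and 14 were called lower at days 3, 6 and 12. Bone marrow-derived cells had 19, 19 and 18 of them called higher and none lower. At day 0 itself, 18 of the 20 were called higher in iPSC-derived than in bone marrow-derived cells, against 18.9% of all genes. Of 14 tested genes that lean to interferon-gamma, 1, 0 and 1 were called higher in iPSC-derived cells at days 3, 6 and 12 and 4, 5 and 4 lower. In bone marrow-derived cells 8, 6 and 6 of them were called higher and 0, 0 and 2 lower. The median log2 fold changes at day 12 in iPSC-derived cells were -1.17 for the type I targets, -0.94 for the interferon-gamma leaning genes, -0.93 for the 9 members and 0.04 for all genes. The same medians in bone marrow-derived cells were 2.14, 0.39, 0.46 and 0.04.

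Among 13 other GBP and IRG genes tested, 2 rose in iPSC-derived cells at each day, and 1, Gbp4, fell at day 6 (-2.19 ± 0.68, adjusted p = 0.0189). In bone marrow-derived cells 8 rose at day 3, 8 at day 6 and 7 at day 12, and none fell. Gbp6 and Gbp4 lie, like Gbp9, in the chromosome 5 cluster. Gbp6 averaged 6.91 ± 2.07, 8.16 ± 2.58, 4.11 ± 3.26 and 4.46 ± 1.46 CPM in iPSC-derived libraries at days 0, 3, 6 and 12 and 0.405 ± 0.284, 25 ± 3.66, 17.3 ± 3.30 and 10.7 ± 5.89 CPM in bone marrow-derived libraries. It rose in bone marrow-derived cells by 5.87 ± 0.64 at day 3 (adjusted p = 2.26e-07), and Gbp4 rose there by 3.68 ± 0.69 (adjusted p = 0.000331). Ifi47, an IRG gene on chromosome 11, rose in the same comparison by 1.91 ± 0.33 (adjusted p = 0.000231). Tgtp1 was at or below 0.96 CPM in every library and was not tested.

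Genes that act with the GTPases were counted in the same way. Of 11 inflammasome and ubiquitin genes linked to GBPs, 1, 1 and 3 rose and 2, 3 and 2 fell at days 3, 6 and 12 in iPSC-derived cells, and 4, 4 and 1 rose and 0, 0 and 2 fell in bone marrow-derived cells. The counts that rose at days 3 and 6 in iPSC-derived cells are shares below those over all genes. A list of 11 genes was centred on the ATG8 conjugation system, which directs GBP and IRG proteins to vacuoles. It also held Sqstm1, which is not part of that system. Of the 11, 2, 0 and 0 rose and 1, 2 and 4 fell at days 3, 6 and 12 in iPSC-derived cells. In bone marrow-derived cells 1 of them rose at each day, and 4, 4 and 6 fell.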

How the data were processed

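Whole-read counts per gene for 24 libraries (SMART-seq v2, paired reads) were used as deposited. Per the file header, the authors made the counts with featureCounts 1.5.0-p1 over GENCODE vM9 genes with no strand setting, leaving out multi-mapping reads and reads that overlap more than 1 gene, so antisense reads count with the gene they overlap. Per the submitters' processing notes, reads were aligned with STAR to mm10 (GRCm38). Libraries held 5839316 to 11805478 counts, and no 2 libraries of a group agreed within sampling noise (chi-square per degree of freedom of at least 6.4).

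Genes were kept by filterByExpr (minimum count 10, minimum total 15), which left 15000 of 47643. Libraries were scaled by TMM, and 1 quasi-likelihood fit with 1 coefficient per group (edgeR 4.0.16, R 4.3.3) gave 15 contrasts, each adjusted by the Benjamini-Hochberg method. P-values set each difference against the spread between replicates, estimated over all groups and with information shared across genes. The labels do not say whether the replicates came from separate cell lines or animals. RPKM used the exon length in the deposited table. Ratios with 3 or fewer counts in a group have exact 95% intervals, which cover counting error only. For Pearson correlations the prior count of log2 CPM was 2, and the search for genes most like the members used genes of at least 5 CPM on average. Gene IDs were named from the supplied annotation, with Python 3.11.15 and pandas 2.3.3 for the tables, intervals from scipy 1.17.1 and figures drawn by matplotlib 3.10.9.

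All 9 members are named. From the pathway lists counts are given, from the marker lists summed levels and counts, and named genes come from those with the lowest adjusted p at day 12 or from a fixed set, of which 1 gene is not reported here. The members and lists were chosen with earlier results of these data known. Alternatives were RLE scaling, no scaling, no filter, fits on the compared groups alone, DESeq2 1.42.0, a replicate block, Tgtp1 and Tgtp2 summed, and leaving out each library. The table holds 0 ERCC rows although the protocol names that spike-in.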

Additional observations from a re-analysis of the deposited data

Results flagged for a closer look

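In 12 cases the change of a member from day 0 differed between the sources, by the interaction term of edgeR's quasi-likelihood fit with Benjamini-Hochberg adjustment over 15000 genes. A negative value means that the log2 change was lower in the iPSC-derived source. For Irgm1 the difference was -1.53 ± 0.29 at day 3 (adjusted p = 0.000298), -1.74 ± 0.29 at day 6 (adjusted p = 8.01e-05) and -1.47 ± 0.29 at day 12 (adjusted p = 0.000512). For Igtp it was -1.87 ± 0.35 at day 3 (adjusted p = 0.000299), -1.76 ± 0.35 at day 6 (adjusted p = 0.000624) and -1.45 ± 0.35 at day 12 (adjusted p = 0.00384). Neither gene rose in iPSC-derived cells at any day, and both rose in bone marrow-derived cells.

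For Tgtp2 the difference was -4.24 ± 0.97 at day 3 (adjusted p = 0.00233), -5.24 ± 1.01 at day 6 (adjusted p = 0.000489) and -5.11 ± 1.04 at day 12 (adjusted p = 0.000855). Without iPSC-derived day 0 replicate 3, which holds most of the few Tgtp2 counts of its group, the values were -2.38 (adjusted p = 0.193), -3.38 (adjusted p = 0.0692) and -3.26 (adjusted p = 0.0834). For Gbp3 the difference was -1.51 ± 0.39 at day 6 (adjusted p = 0.00726) and -1.24 ± 0.39 at day 12 (adjusted p = 0.0261). The Gbp3 day 12 difference was lost without any 1 of iPSC-derived day 0 replicate 3, iPSC-derived day 12 replicates 1 and 3, bone marrow-derived day 0 replicate 3 and bone marrow-derived day 12 replicates 1 and 3 (-1.20 to -1.04, adjusted p of 0.0524 to 0.0726). For Gbp2 it was -1.88 ± 0.43 at day 6 (adjusted p = 0.00268). The difference of Irgm2 at day 12 was not called (-0.96 ± 0.37, adjusted p = 0.0727) and was called without day 0 replicate 2 of the iPSC-derived or of the bone marrow-derived source (-1.19 to -1.13, adjusted p of 0.0244 to 0.0488), without scaling factors (-1.25, adjusted p = 0.0171) and without the filter (-0.93, adjusted p = 0.0298).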

How the results depend on the processing

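Of 135 values (9 members in 15 comparisons), 62 were called, and 38 of these calls held under every alternative that gave a value. Of 1908 alternative values, 1805 stayed called or stayed not called, 74 lost the call and 29 gained one. Among values called in the main fit or in the alternative, 0 reversed direction. Direction was not compared where neither was called. The number of members called lower in iPSC-derived cells at day 3 was 1, and 0 with RLE size factors, without the filter or in a fit of the compared groups alone. Fits of the compared groups alone also gave 2 called lower in iPSC-derived cells at day 6, 1 at day 12 against day 3, 1 in bone marrow-derived cells at day 3 and 2 between the sources at day 12. At day 12 in iPSC-derived cells 1 member, Gbp9, was called higher with RLE size factors, without the filter, in the fit of 2 groups and with DESeq2, against 0 otherwise. Fits of the compared groups alone gave 126 of the 135 values, the rest failing the filter. Leaving out 1 library at a time gave, for members called higher against day 0, 0 to 1 in iPSC-derived cells at day 6 and 3 to 5 in bone marrow-derived cells at days 3 and 6. For members called lower against day 0 it gave 0 to 2, 2 to 5 and 2 to 5 in iPSC-derived cells at days 3, 6 and 12, and 0 to 1 in bone marrow-derived cells at day 6. It gave 1 to 2 for bone marrow-derived day 12 against day 3, 1 to 3 and 3 to 3 between the sources at days 0 and 3, and 2 to 5 for the day 12 difference between the sources' changes.

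The replicate numbers were not taken as pairs, since not every correlation of same-numbered libraries was above 0.1: correlations of same-numbered libraries' deviations ran from -0.0545 to 0.161 in iPSC-derived cells and from -0.0209 to 0.0397 in bone marrow-derived cells, over 18 pairs each, of which 4 and 0 were above 0.1. In iPSC-derived cells 8 of 12 libraries, and in bone marrow-derived cells 9 of 12, correlated best with their own number. The library numbers in the sample descriptions run by replicate in iPSC-derived cells and by day in bone marrow-derived cells. The labels do not state pairs, and pairing was not excluded. Calls gained without scaling factors and not given above were Irgm1 in iPSC-derived cells at day 12 (-0.65, adjusted p = 0.0201), Gbp7 between the sources at day 12 (-0.91, adjusted p = 0.0301) and the Gbp2 difference between the sources' changes at day 12 (-1.26, adjusted p = 0.0366), and without the filter Tgtp2 between the sources at day 0 (-1.36, adjusted p = 0.0339). In fits of the compared groups alone Gbp2 (0.49, adjusted p = 0.038) and Gbp7 (-0.50, adjusted p = 0.00453) in bone marrow-derived cells at day 3, and Igtp there at day 12 against day 3 (-0.54, adjusted p = 0.0391), were called. With a replicate block 1 of the 135 calls changed, Gbp5 between the sources at day 3 (-2.80, adjusted p = 0.0965). Without scaling factors the median of all genes moved, from the value with TMM, by over 0.1: at day 12 it was -0.31 for the difference between the sources' changes, against -0.02, and 0.22 in bone marrow-derived cells, against 0.04. The genes called at day 12 were then 1733 higher and 2057 lower in iPSC-derived cells, against 2099 and 1607 with TMM, and 2820 and 882 in bone marrow-derived cells, against 2206 and 1362. Depth limits Gbp5 and Tgtp2 in iPSC-derived cells, where a group holds 1 to 23 counts.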

Other observations

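Taken by family, a choice made after their values were seen, the members resembled different genes across the 24 libraries. The 6 genes most like the mean pattern of the 5 GBP members were Crybg1 (Pearson r of 0.96), Trim25 (0.95), Pygl (0.92), Pirb (0.91), H2-D1 (0.90) and Emb (0.89). Among the 6 most like the 4 IRG members were Dhx58 (0.94), Trim30d (0.93), Trim30a (0.92), Stat2 (0.90) and Mx1 (0.90). Against the mean of all 9 members Irf1 ranked 58 of 9927 genes (0.77) and Irf8 3698 (0.12). These are descriptions over libraries that share source and day.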
